A study of Mus musculus with 27 samples.

Results

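The comparison described here is that of mouse intestine at E17.5, a late fetal stage, between a group labelled KO for Taf4 and a group labelled WT. Its members were all genes whose mean, over the 3 libraries of a group, reached 10 in WT or in KO, and there were 16484 of them among the 27316 genes of the table. The series holds 27 RNA-seq libraries in 9 groups of 3, from E17.5 intestine, adult ileum, ileal organoids and tumours. Both embryo groups had the mixed strain C57Bl6/129sv. By the study's methods the KO fetuses were Taf4lox/lox::VilCre and the WT fetuses were their Taf4lox/lox littermates, so both groups carried the floxed allele and only KO carried the Cre recombinase. Villin drives this Cre in the epithelium alone, the muscle, connective tissue, nerves and vessels keep Taf4, and the protein is lost gradually before birth. GEO's labels instead name an injection of sunflower oil for WT and of tamoxifen for KO, and which account holds is not known. The intestine was taken whole, so that fewer epithelial cells and less RNA per epithelial cell cannot be told apart in any value below.

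TFIID is the complex that recognises core promoters and helps to place RNA polymerase II at the start of genes. Taf4, encoded by Taf4a, is one of its subunits and a contact for transcription factors bound elsewhere, and Taf4b encodes a paralogue. Late in gestation the intestinal epithelium forms villi and begins to make the brush border, transporters and enzymes with which it will absorb milk. Enterocytes of this age also take up whole proteins by endocytosis and digest them in large lysosomes, a feature lost at weaning.

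All values are normalised counts per kb of transcript, written below without the unit. The length is the median over the annotated transcripts of a gene, so levels of different genes can be compared only roughly. Myh7b, with 42 annotated exons, was divided by a length of 674 bases. The deposited table holds 1 mean per gene and group, and the whole reads of each library were worked back from the digits of these means for 15598 of the 16484 members. The libraries are called a, b and c within each group, letters that carry no replicate number of the labels. They held between 11167029 and 12873857 recovered reads. Fell and rose are used below of genes that passed 2-fold between the group means and an adjusted p under 0.05 in limma across the 15598 genes. The other 886 members, mostly abundant, have group means alone and no test. Differences with an error are limma's, on the log2(normalised reads + 1) scale with SE, and those without an error are log2((KO + 1)/(WT + 1)) of the group means. By the study's methods there were 3 fetuses in each group.

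Some libraries held RNA of neighbouring organs. Alb, the albumin of liver, stood at 6.6, 1814 and 2.54 in the WT libraries and 10.7, 3.74 and 8.76 in the KO libraries, and Ahsg, another liver plasma protein, at 3.05, 675 and 2.11 in the WT libraries and 2.85, 3.46 and 2.89 in the KO libraries. Both were high in WT library b alone. Their part in other results is given beside those results. The 10 hepatocyte markers summed to 253, 2795 and 246 in the WT libraries and 59.2, 54.5 and 64.3 in the KO libraries. Serpina1a, 1 of the 10, made up most of the sums of WT libraries a and c, at 208 and 206. It is among the plasma protein genes described below, so those sums do not measure liver RNA alone. Of the 10, 1 was at 0 in every WT library and 3 in every KO library. The 11 markers of pancreatic acinar cells summed to 1304, 188 and 155 in the WT libraries and 57.5, 708 and 376 in the KO libraries, highest in WT library a. Alb and Ahsg, with changes of -6.12 and -5.81 between the group means, did not pass (limma adjusted p = 0.38 and limma adjusted p = 0.28), and the change of Alb without WT library b was 0.65. Kdm5d of the Y chromosome, picked after its values were seen, stood at 240.0, 0 and 0 in the WT libraries and 0, 248 and 0 in the KO libraries, high in 1 library of each group.

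**Figure D1:**
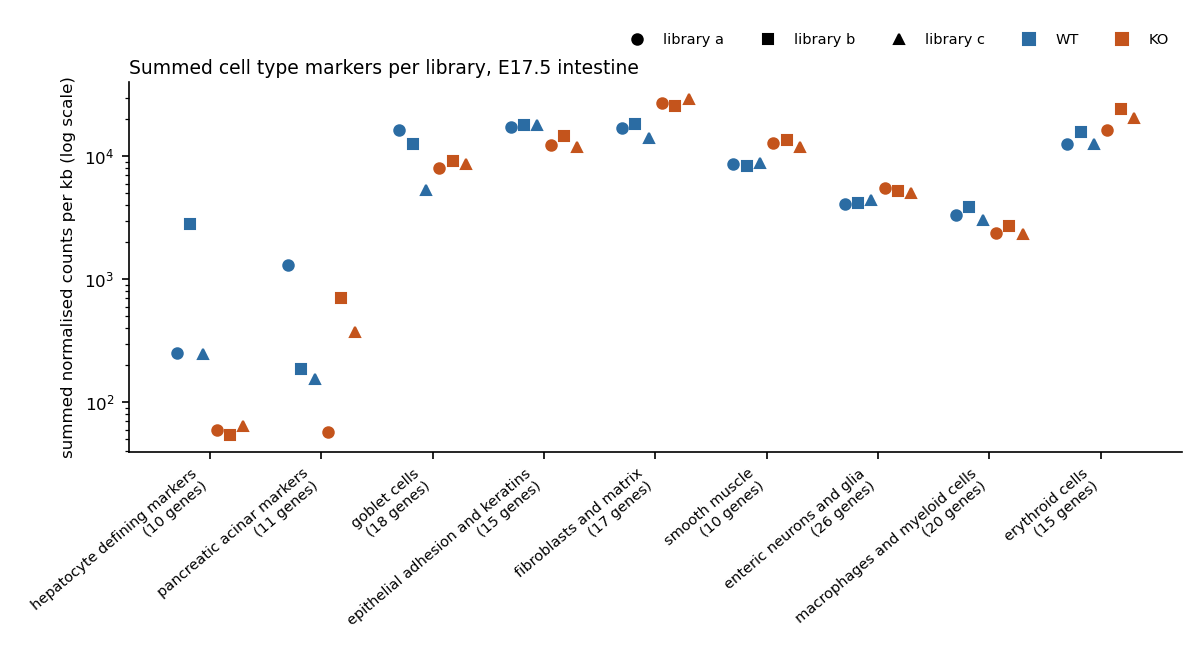
Summed normalised counts per kb (log scale) of marker genes of 9 cell types, 1 point per library, with WT in blue, KO in orange and the library letter as the shape. Hepatocyte markers are highest in WT library b, epithelial adhesion genes are lower in the 3 KO libraries, and fibroblast, muscle and nerve genes are higher in all 3.

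Taf4a itself (mm9 chromosome 2, 179646851 to 179711351, 17 annotated exons) was not lower in the KO libraries. Its values were 256, 212 and 208 in the WT libraries and 324, 275 and 299.9 in the KO libraries, and every KO library was above every WT library. The difference of 0.41 ± 0.10 (limma adjusted p = 0.0074) is under 2-fold. A value summed over the whole gene cannot show the loss of some exons, and cells outside the epithelium keep the gene, so the labels cannot be checked with these levels. Taf4b stood at 20.6, 24.7 and 29.1 in the WT libraries and 41.5, 38.4 and 37.2 in the KO libraries, a difference of 0.66 ± 0.15 (limma adjusted p = 0.0063). Of the 29 genes of TFIID and its partner complexes with values, 0 fell and 0 rose, 15 were higher at an adjusted p under 0.05 without reaching 2-fold, and the median change was 0.25. Over all 15598 genes 21.7% were higher and 22% lower at this threshold with no limit on the fold.

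Far more genes were lower than higher in the KO intestine. Between the group means 1372 genes were lower past 2-fold, 8.32% of the members, and 356 were higher, 2.16%. With the test, 1063 of the 15598 genes fell, 6.81%, and 185 rose, 1.19%. With the libraries scaled to equal totals, which moves all genes up by 0.14, 900 fell and 311 rose. In 1053 of the 1063 and in 180 of the 185 the WT and KO libraries did not overlap. These genes were called on the same libraries, so this count adds no separate support. The falls were also deeper, since 134 of the genes that fell were past 8-fold against 11 of those that rose. The median change over all members was 0.04. Between 100 and 300 counts 213 of 3654 tested genes fell and 24 rose. From 3000 to 10000 counts 56 of 383 tested genes fell and 0 rose, and from 10000 counts 10 of 39 fell and 0 rose. These 2 highest levels held 695 and 175 members, so many there had no test. Short genes were the main exception to the test: of the 903 genes under 300 bases, 219 were lower past 2-fold but only 41 fell. At a level of 10 such a gene has about 3 reads or fewer.

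**Figure D2:**
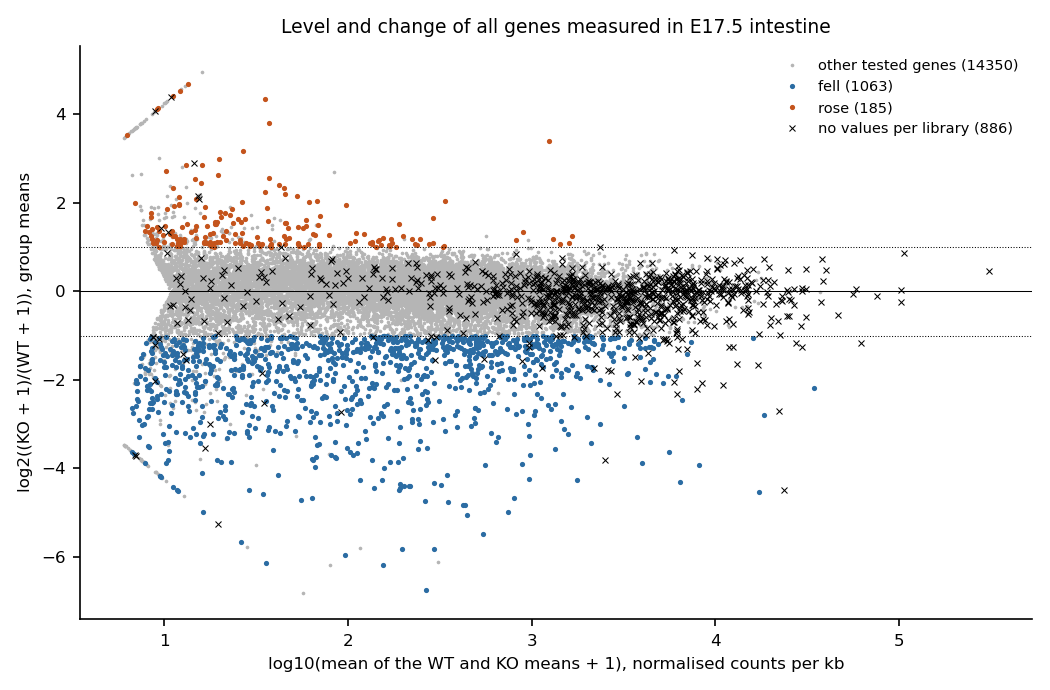
Change between the group means, log2((KO + 1)/(WT + 1)), against the mean level (log10 scale) for all 16484 members. Genes that fell (1063, blue) extend over the whole range of levels, genes that rose (185, orange) lie mostly at low levels, and crosses mark the 886 genes without values per library.

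The 12 largest falls, among genes with a mean of at least 100 in WT, held 4 that did not pass the test, namely Alb, Ahsg, the pseudogene Gm8210 and the T cell receptor segment Trbd1. Gm8210 had 2, 2 and 215 reads in the WT libraries and 2, 0 and 0 in the KO libraries, nearly all in 1 library, and Trbd1 had 0, 2 and 2 reads in the WT libraries and 0, 0 and 0 in the KO libraries. Gm2061, a long non-coding RNA (mm9 chromosome 1, 187270995 to 187279447, 3 annotated exons), stood at 445, 566 and 571 in the WT libraries and 6.38, 1.23 and 4.01 in the KO libraries. Each KO library was thus close to 0, with a difference of -7.18 ± 0.42 (limma adjusted p = 9.3e-07). Abcb11, the bile salt export pump best known from the liver, stood at 272, 357 and 289.8 in the WT libraries and 4.12, 2.08 and 3.48 in the KO libraries. The groups were far apart (-6.52 ± 0.22, limma adjusted p = 3.2e-08), and WT libraries a and c, low in Alb, were nearly as high as WT library b. Paqr9, a membrane receptor of the progestin and adipoQ family, fell from 388 to 5.88, and Enpp7, the alkaline sphingomyelinase that digests milk sphingomyelin, fell from 577 to 9.24. Btnl7, a butyrophilin-like protein, fell from 190.0 to 2.08 and Leap2, the hormone that opposes ghrelin, from 1063 to 22.9. Slc2a2, the glucose transporter of the basal enterocyte membrane, stood at 889, 796 and 905 in the WT libraries and 28.0, 23.7 and 23.8 in the KO libraries, and Fbp1, an enzyme of gluconeogenesis, at 1025, 1736 and 1575 in the WT libraries and 44.1, 43.5 and 46.0 in the KO libraries. None of these values overlapped between the groups, and the adjusted p of the 8 genes lay between 9.4e-09 and 9.3e-07 in limma.

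**Figure D3:**
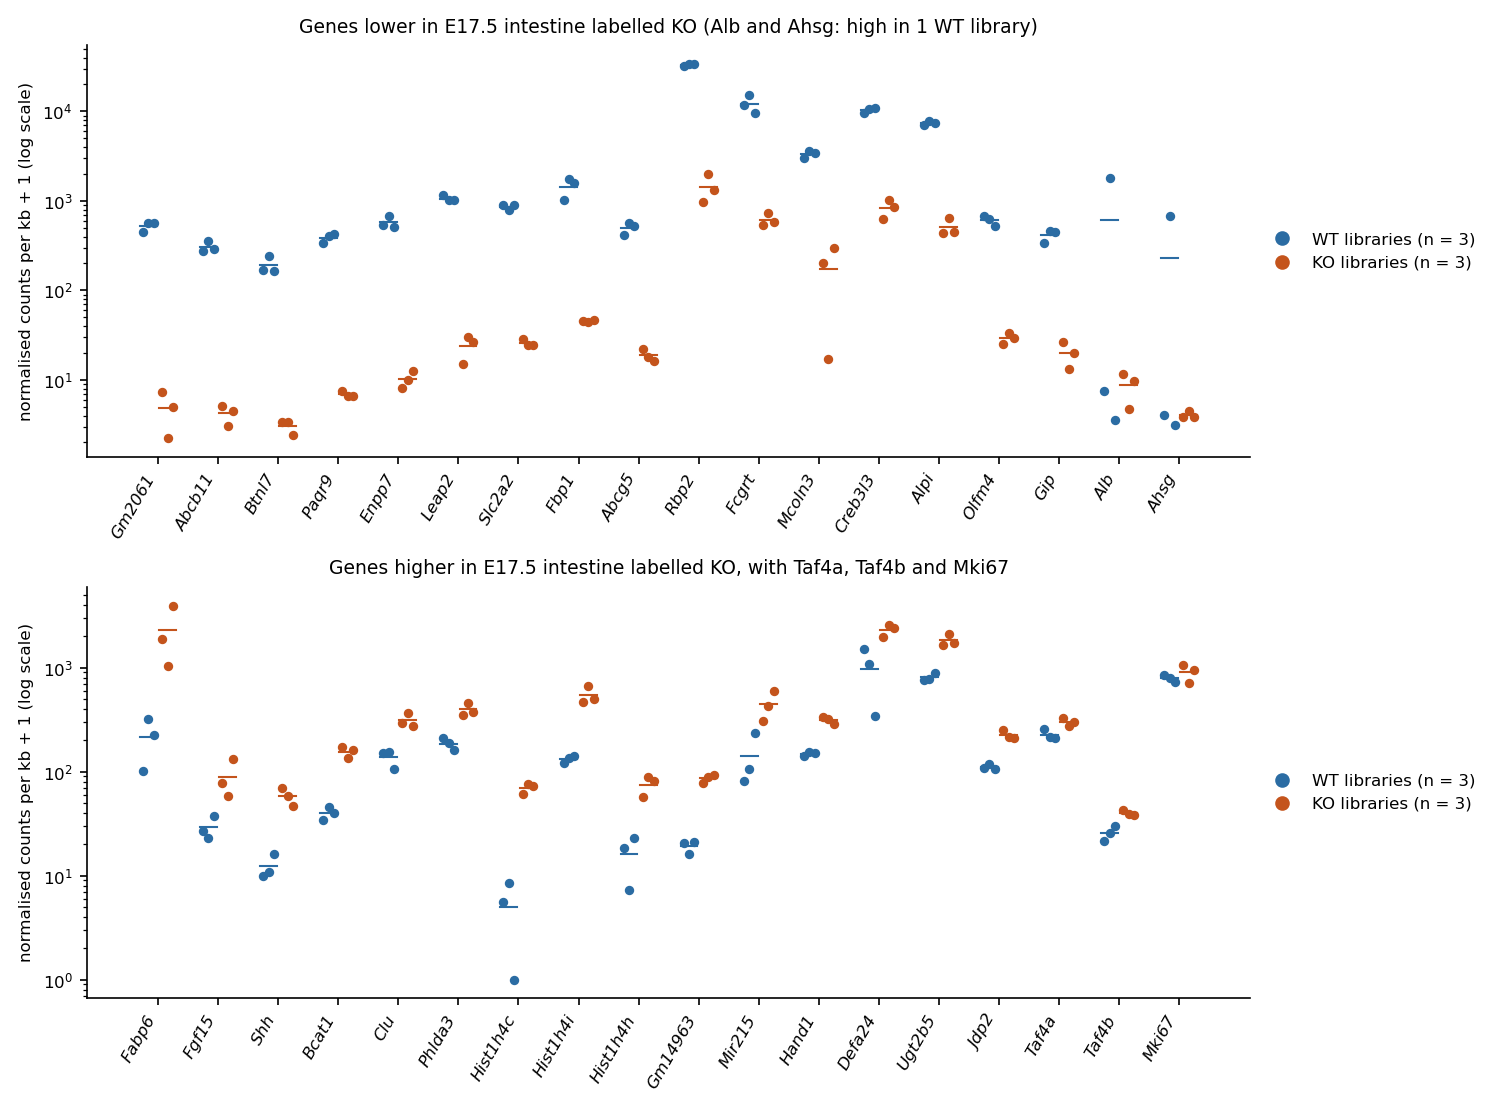
Normalised counts per kb plus 1 (log scale) of 36 genes in each of the 3 WT (blue) and 3 KO (orange) libraries of E17.5 intestine, with a bar at the mean. WT and KO points are apart in every gene of the upper panel except Alb and Ahsg, where WT library b alone is high.

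Counted in level and not in folds, the largest losses were of very abundant genes. The 10 genes with the largest drop in level made up 12.98% of the summed loss over all members. They were Apoa1 and Apoa4, the apolipoproteins of chylomicrons and HDL, Fabp1 and Fabp2, the fatty acid carriers of enterocytes, Rbp2, the retinol carrier, the selenoproteins Gpx3 and Sepp1, the lectin Lgals4, the lysosomal carboxypeptidase Ctsa and the mitochondrial mt-Co1. Fabp1 stood at 55387, 55889 and 58161 in the WT libraries and 10282, 13790.5 and 12983 in the KO libraries and Rbp2 at 32365, 33612 and 33709 in the WT libraries and 982, 1980.1 and 1309 in the KO libraries. All KO libraries were below all WT libraries for both, and the differences were -2.20 ± 0.12 (limma adjusted p = 5.0e-07) and -4.60 ± 0.20 (limma adjusted p = 1.1e-07). Gpx3 fell from 32169 to 4666. Apoa4 had group means of 45398 in WT and 2007 in KO and Apoa1 of 85799 in WT and 38429 in KO, with no test. The gains were of another kind, since genes past 2-fold higher made up only 1.69% of the summed gain. The 10 largest were H19 and Igf2, a pair of imprinted fetal genes, the matrix genes Col1a1, Col3a1 and Sparc, the smooth muscle genes Actg2 and Myl9, and Flna, Pabpc1 and Hsp90ab1. Their group means differed by between 0.24 and 0.86. H19 stood at 258434 in WT and 356037 in KO and Col1a1 at 75373 in WT and 136787 in KO.

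Genes of the epithelium as such were only slightly lower. Of 26 genes for epithelial adhesion and keratins all were below 0 in their change, with a median of -0.45, and 1 of the 15 with values per library fell, the protease Prss8 (from 1037 to 463). Epcam, an adhesion molecule of all epithelial cells, had group means of 7321 in WT and 4499 in KO. Genes of the stroma were higher. All 25 genes of fibroblasts and matrix and all 19 of smooth muscle were above 0, with medians of 0.64 and 0.50. Of the 17 matrix genes with values 14 were higher at an adjusted p under 0.05, against 21.7% over all genes, and 0 rose past 2-fold. Enteric neurons and glia had a median of 0.50, with 17 of 23 higher by that measure, and endothelium one of 0.26. Summed, the 17 matrix genes lay between 14092 and 18225 in the WT libraries and between 25426 and 29084 in the KO libraries, and the 15 epithelial genes between 17334 and 18041 in the WT libraries and between 11946 and 14487 in the KO libraries. Neither range overlapped between the groups. In a setting chosen after the data were seen, which takes the epithelial median as the zero point, 609 genes stayed lower past 2-fold in place of 1063, and taking the matrix median, 48 stayed higher in place of 185. The part of this composition in the gene groups that follow was not tested further.

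Both the enzymes and the scaffold of the brush border fell. Of the 10 surface peptidases and phosphatases with values 8 fell and 0 rose, and of the 11 structural genes 8 fell and 0 rose, against 6.81% and 1.19% over all genes. Alpi, an alkaline phosphatase made by enterocytes (mm9 chromosome 1, 88994579 to 88998181, 11 annotated exons), stood at 7062, 7854 and 7454 in the WT libraries and 433, 643 and 451 in the KO libraries. Every KO library was far below every WT library (-3.89 ± 0.14, limma adjusted p = 3.5e-08). Mme, neprilysin, fell from 1175 to 110.0 and Enpp3, a nucleotide phosphodiesterase, from 1189.9 to 119.7. Among structural genes Myo1a, the myosin that ties the actin core to the microvillus membrane, fell from 874 to 109, the immunoglobulin-domain protein Tmigd1 from 171 to 25.6, the scaffold Pdzk1 from 847 to 136 and Baiap2l2, which bends the microvillus membrane, from 1339.9 to 269. Vil1, villin, which bundles actin and whose promoter drives the Cre, had group means of 25057 in WT and 14738 in KO, a change of -0.77 that is under 2-fold. Another 5 structural genes without values per library were also lower past 2-fold.

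Of 7 genes with values for the digestion and uptake of sugars 6 fell, and their list had a median of -1.96. Besides Slc2a2, the sodium-glucose transporter Slc5a9 fell from 250.1 to 16.8 and the hexose transporter Slc2a7 from 81.1 to 9.83. Lct, lactase, which splits the sugar of milk, had group means of 12984 in WT and 2796 in KO and no test. Of 9 genes for fructose use and gluconeogenesis with values 6 fell and 0 rose. G6pc, the glucose 6-phosphatase, stood at 97.2, 116 and 104 in the WT libraries and 1.74, 4.93 and 2.47 in the KO libraries and Gpd1, which makes the glycerol backbone of lipids, at 1956, 1812 and 1774 in the WT libraries and 90.3, 111 and 88.9 in the KO libraries. Both were apart in every library. Pck1, the gluconeogenic carboxykinase, fell from 1586 to 364, whereas Khk, the ketohexokinase that starts fructose breakdown, stood at 353, 382 and 376 in the WT libraries and 165, 256 and 189.9 in the KO libraries, apart but under 2-fold (-0.88 ± 0.15, limma adjusted p = 1.0e-03).

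The transporters of amino acids and peptides were lower in all 17 members, and 8 of the 13 with values fell. Slc6a19, the main sodium-coupled carrier of neutral amino acids, stood at 2631, 2755 and 2652 in the WT libraries and 210.3, 390.3 and 331 in the KO libraries (-3.15 ± 0.18, limma adjusted p = 8.2e-07). The glutamine carrier Slc38a3 fell from 173 to 20.5, Slc15a1, which carries di- and tripeptides, from 407 to 109.7, and Slc7a9, a subunit of the cystine carrier, from 2095 to 608. Over all 259 solute carriers with values, a family picked by its symbol after the values were seen, 54 fell and 5 rose.

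The machinery for taking up whole proteins fell in 15 of 21 members with values and rose in 0. Fcgrt, the receptor that carries maternal antibodies across the epithelium, stood at 11817, 15179 and 9645 in the WT libraries and 542, 726 and 578 in the KO libraries. Its level in the KO libraries was about 19.8 times lower (-4.30 ± 0.16, limma adjusted p = 5.0e-08). Mcoln3, a calcium channel of the endosome and lysosome, stood at 3025, 3611 and 3399.5 in the WT libraries and 204, 16 and 295 in the KO libraries, with KO library b lowest by far. Slc46a3, a lysosomal carrier, fell from 2466 to 209, Lrp2, the endocytic receptor megalin, from 226 to 48.8 and its partner Cubn, cubilin, from 8686 to 2314. Nox4, an NADPH oxidase, fell from 376 to 64.2. Of 10 genes known to be high before weaning or to switch at it 9 fell. Bcl6, a repressor, fell from 92.5 to 16. Prdm1, the factor that holds back the adult programme in suckling enterocytes, stood at 731, 711 and 741 in the WT libraries and 580.3, 596 and 575 in the KO libraries with a difference of -0.32 ± 0.06 (limma adjusted p = 0.0027).

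Lipid absorption fell in 12 of 18 members with values, and 7 more without such values were lower past 2-fold. Apoc2, the cofactor of lipoprotein lipase, stood at 14657, 16424 and 14489 in the WT libraries and 814, 1207 and 978 in the KO libraries (-3.94 ± 0.13, limma adjusted p = 3.2e-08), and Slc27a2, an acyl-CoA synthetase that imports fatty acids, fell from 70.9 to 4.95. Apoa5 went the other way at a low level, with 5.59, 4.05 and 3.44 in the WT libraries and 11.8, 17.3 and 12.7 in the KO libraries. Abcg5 and Abcg8, which together pump plant sterols back into the lumen, fell from 503 to 17.8 and from 363 to 16.8. Soat2, which esterifies cholesterol, fell from 812 to 247 and Npc1l1, the cholesterol importer, from 2071 to 758. Of the 12 genes of sterol synthesis with values only Fdps fell (from 4746 to 2213), a call that was lost without KO library a, where its change was -0.98. Fatty acid oxidation and ketogenesis fell in 9 of 16 members, among them Cpt1a, which admits fatty acids to mitochondria (from 1108 to 466), Acaa1b (from 56.3 to 15.2), the kinase Pdk4 (from 84.2 to 36.0) and Ppara, the nuclear receptor of this pathway (from 686 to 309).

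The fetal gut makes arginine from glutamine and proline, and this path fell in 5 of 8 members. Otc, ornithine transcarbamylase, stood at 709.6, 716 and 658 in the WT libraries and 179, 195 and 170.0 in the KO libraries, and Asl, which releases arginine, at 1620.1, 1849 and 1829 in the WT libraries and 457, 640.2 and 519 in the KO libraries. Neither overlapped between the groups. Prodh, which starts proline breakdown, fell from 2058 to 809 and the ornithine carrier Slc25a15 from 1509.6 to 662. Pycr1, which makes proline, had the opposite change (from 219 to 439) but was under 2-fold without any 1 of WT library a, WT library c or KO library b, where its change was 0.98, 0.95 and 0.99. Cps1, the entry to the urea cycle, had group means of 9662 in WT and 5234 in KO. In amino acid breakdown 5 of 15 fell: Hgd and Hpd of the tyrosine path (from 65.7 to 6.96 and from 104 to 25.2), Chdh of choline (from 154 to 19.3), Sdsl of serine (from 112 to 27) and the fumarylacetoacetate hydrolase of the list. Bcat1, the cytosolic transaminase of branched amino acids, rose, with 33.5, 44.6 and 38.7 in the WT libraries and 170.5, 133 and 161 in the KO libraries (1.96 ± 0.18, limma adjusted p = 1.9e-05).

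Bile acid genes of the ileum split in 2 directions. Fabp6, the bile acid carrier inside ileal enterocytes, stood at 99.5, 318 and 223 in the WT libraries and 1878, 1025 and 3942 in the KO libraries. All KO libraries were higher, but they spread widely among themselves, and the difference of 3.34 ± 0.48 passed (limma adjusted p = 3.9e-04). Fgf15, the hormone with which the ileum signals to the liver, stood at 25.8, 22.2 and 36.7 in the WT libraries and 77.0, 56.8 and 131 in the KO libraries and rose as well (1.57 ± 0.29, limma adjusted p = 0.0019). Osta and Ostb, the basal exporter of bile acids, fell from 2042 to 673 and from 368 to 68.3, next to Abcb11. Slc10a2, the importer on the brush border, stood at 16, 8.4 and 12.1 in the WT libraries and 17.0, 15.1 and 20.4 in the KO libraries, with a difference of 0.54 ± 0.28 (limma adjusted p = 0.15).

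Among drug-handling enzymes all 6 carboxylesterases fell, Ces2e from 1829 and Ces2a from 142 in WT to 139.6 and 16.9 in KO, though Ces1d (from 10.1 to 2.93) lost its call when WT library b, WT library c, KO library a or KO library c was left out (adjusted p of 0.10, 0.080, 0.0996 and 0.091 in limma). Of 22 conjugating enzymes 11 fell and 1 rose. The sulfotransferases Sult1b1 and Sult2b1 fell from 1039 to 67.6 and from 123 to 23.1, and the glutathione transferases Gsta2 and Gstm3 from 395 to 52.2 and from 455 to 83.2. Ugt1a1, which conjugates bilirubin, fell from 48.1 to 17.0, and Ugt2b5 rose, with 752, 767 and 888 in the WT libraries and 1647, 2083 and 1728 in the KO libraries. Of 18 P450 genes 9 fell and 0 rose, among them Cyp2c65 (from 87.7 to 16.2), Cyp2d26 (from 872 to 178), Cyp2c68 (from 710.0 to 191) and Cyp4f16 (from 1704 to 548). These families hold near-identical copies, and by the study's methods only uniquely aligned reads were counted, so reads shared by copies were left out.

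Of 20 vitamin A genes 4 fell and 0 rose, and their median was above 0 at 0.35. The 4 included Rbp2 and Bco2, which cleaves carotenoids (from 255 to 34.3). Metal and vitamin transporters fell in 9 of 16. Summed, the list stood at 12122, 28660 and 13411 in the KO libraries, with KO library b inside the WT range of 26649 to 30171. Slc30a10, a manganese exporter, fell from 127 to 10.7, the thiamine carrier Slc19a3 from 80.7 to 8.92 and the vitamin C carrier Slc23a1 from 914 to 187. Slc11a2, which imports iron at the brush border, stood at 8266, 9319 and 7664 in the WT libraries and 1641, 2256 and 2115 in the KO libraries (-2.08 ± 0.12, limma adjusted p = 9.1e-07), and Slc40a1, ferroportin, which exports it, at 2278, 2596 and 2483 in the WT libraries and 1122, 1578 and 1635 in the KO libraries (-0.78 ± 0.13, limma adjusted p = 0.0012). Ion channels and exchangers fell in 7 of 19 members and rose in 0: Slc9a3, the sodium-proton exchanger of the brush border, from 360.3 to 15.2, the water channels Aqp3 and Aqp8 from 109.8 to 13.3 and from 322 to 48.1, the sodium channel subunit Scnn1a from 267 to 61.3 and the chloride exchanger Slc26a3 from 1671 to 617.

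Some plasma proteins are made by fetal gut as well as by liver. Of 30 with values 13 fell, but the list median of -2.23 became -0.68 without WT library b, the one with liver RNA. Ttr, transthyretin, stood at 341, 1048 and 570.2 in the WT libraries and 37.2, 37.6 and 32.2 in the KO libraries, and Serpina1a, an alpha-1-antitrypsin, at 208, 253 and 206 in the WT libraries and 25.1, 29.5 and 17.4 in the KO libraries. Both were lower in every KO library, also against WT libraries a and c. Without WT library b the changes of Ttr and Serpina1a were -3.64 and -3.06 (2.0e-05 and 5.3e-05 as limma adjusted p). Fgg, a fibrinogen chain, stood at 3.81, 157 and 14.4 in the WT libraries and 3.55, 3.08 and 2.06 in the KO libraries, high in that library alone, and did not pass (limma adjusted p = 0.055).

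**Figure D4:**
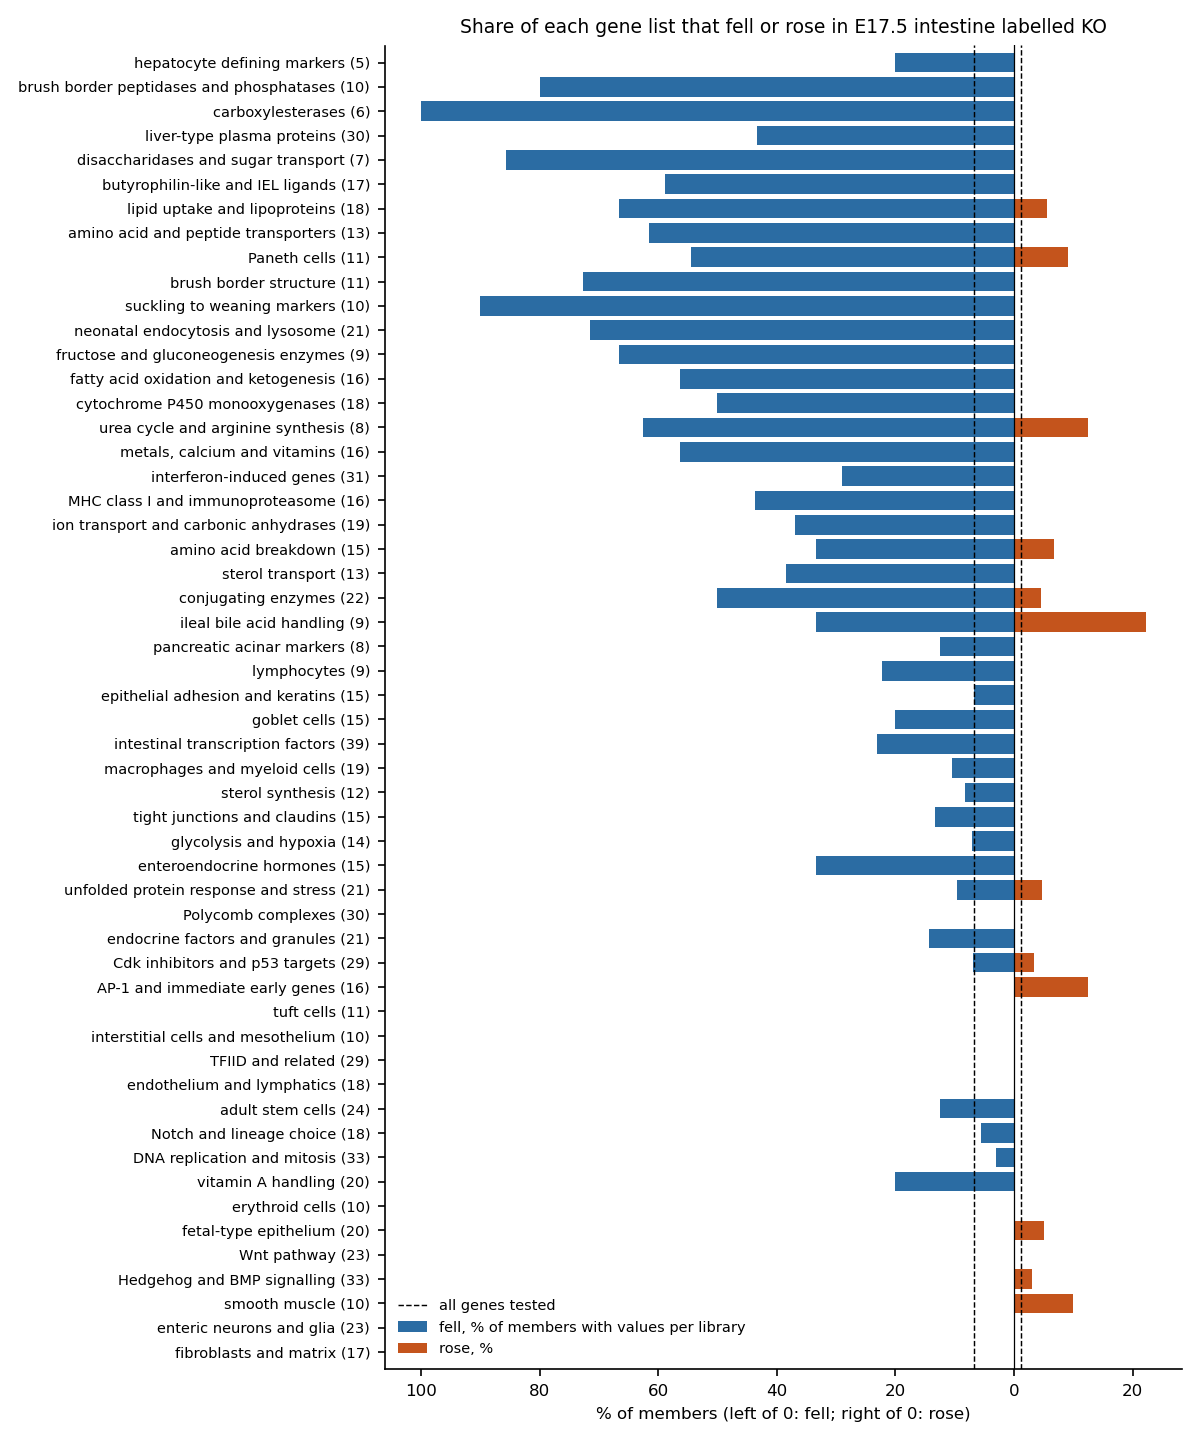
Share of each gene list that fell (blue, to the left) or rose (orange, to the right) among its members with values per library, whose number is in brackets. Lists are ordered by the median change of their members, lowest at the top, and dashed lines mark the shares over all genes tested, 6.81% and 1.19%. Most digestive, transport and metabolic lists reach far beyond the dashed line on the left, but sterol synthesis and glycolysis lie near it. Stromal and signalling lists do not reach far beyond it.

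The secretory and crypt lineages changed less evenly. Of 15 goblet genes 3 fell, the membrane mucin Muc4 (from 187 to 47.1) and Klk1 and another mucin among them. Klk1 lost its call when WT library a, WT library b, KO library a or KO library c was left out (adjusted p of 0.098, 0.095, 0.054 and 0.069 in limma). Muc2, the gel-forming mucin, stood at 719, 391 and 95.9 in the WT libraries and 411, 310.0 and 452 in the KO libraries, Zg16, a granule lectin, at 284, 584 and 58.7 in the WT libraries and 18.5, 135 and 73.7 in the KO libraries and Ccl6, a chemokine of the list, at 578, 309 and 72.2 in the WT libraries and 67.1, 94.2 and 81.3 in the KO libraries. WT library c was the lowest WT library for all 3 genes, and they did not pass (limma adjusted p = 0.63, limma adjusted p = 0.091 and limma adjusted p = 0.055). Summed, the goblet list stood at 16233, 12563 and 5336 in the WT libraries and between 8062 and 9091 in the KO libraries. Of 11 Paneth genes 6 fell and 1 rose. Itln1, a lectin, fell from 744 to 206, Reg4 from 592 to 186 and Reg3b from 214 to 40.6, the last with a call that was lost without WT library b or WT library c (adjusted p of 0.063 and 0.067 in limma). Defa24, a defensin with many near-identical copies, stood at 1513, 1080.4 and 339 in the WT libraries and 1985, 2589.7 and 2384 in the KO libraries and rose, but not without WT library c or KO library c (a change of 0.84 and an adjusted p of 0.070 in limma). Lyz1, lysozyme, stood at 67.6, 69.6 and 44.3 in the WT libraries and 56.4, 57.1 and 66.8 in the KO libraries (limma adjusted p = 0.96). Tuft cell genes fell in 0 and rose in 0 of 11 members by limma, with 2 higher below 2-fold, a share close to the 21.7% over all genes, and Dclk1 stood at 40.1, 50.3 and 54.4 in the WT libraries and 62.4, 48.2 and 68.2 in the KO libraries (0.30 ± 0.15, limma adjusted p = 0.14).

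Of 15 gut hormones 5 fell and 0 rose, against 6.81% and 1.19% over all genes. The list was mixed, with 8 members below 0 in their change, 7 above 0 and a median of -0.099. At an adjusted p under 0.05 in limma with no limit on the fold, 7 were lower and 4 higher. Gip, the incretin of the upper gut, stood at 336, 457 and 453 in the WT libraries and 25.3, 12.1 and 19 in the KO libraries, and Sst, somatostatin, at 243, 233 and 114 in the WT libraries and 16.8, 9.93 and 15.7 in the KO libraries. Both were apart in every library. Nts, neurotensin, fell from 221 to 48.3 and Sct, secretin, from 1030.3 to 448. Of the factors and granule genes of endocrine cells 3 of 21 fell, Tph1, which makes serotonin (from 56.3 to 14.4), the granule protein Chga and Pax4 (from 14.4 to 1.86). The median of this list was 0.035, and 5 of its genes were lower and 6 higher in limma with no limit on the fold. Neurog3, which starts the endocrine lineage, stood at 22.8, 28.6 and 30.3 in the WT libraries and 27.2, 20.4 and 16.6 in the KO libraries (-0.35 ± 0.24, limma adjusted p = 0.26).

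Olfm4, which marks the stem cells that emerge between the villi at this stage, stood at 685, 630.2 and 529 in the WT libraries and 24.5, 32.7 and 28.2 in the KO libraries. The KO mean was 20.9 times lower and the groups were far apart (-4.41 ± 0.13, limma adjusted p = 2.5e-08). In the stem cell list 3 of 24 fell, the others being the water channel Aqp4 (from 63.1 to 19) and the telomerase gene Tert, while 14 were higher at an adjusted p under 0.05 without reaching 2-fold, against 21.7% over all genes. Lgr5, the Wnt co-receptor of crypt base cells, stood at 97.2, 108 and 86.5 in the WT libraries and 152, 118 and 139 in the KO libraries (0.48 ± 0.12, limma adjusted p = 0.01). Of 20 genes typical of fetal and regenerating epithelium 13 were higher and 0 lower at an adjusted p under 0.05, against 21.7% and 22% over all genes. Only 1 of them rose. This was Clu, clusterin, with 149.6, 154 and 105 in the WT libraries and 289.8, 368 and 274 in the KO libraries (1.19 ± 0.18, limma adjusted p = 4.6e-04). Wnt genes fell in 0 and rose in 0 of 23 by limma, with 14 higher below 2-fold against the same 21.7%. Notch genes fell in 1 of 18, Olfm4 itself, close to the 6.81% over all genes. Notch1 stood at 3751, 3547 and 3211 in the WT libraries and 4596, 3542 and 4361 in the KO libraries (0.24 ± 0.10). Of 33 Hedgehog and BMP genes 3 were lower and 19 higher at an adjusted p under 0.05, and 1 rose. It was Shh, the ligand that the epithelium sends to the mesenchyme (mm9 chromosome 5, 28783355 to 28793641, 3 annotated exons), with 9.02, 9.81 and 15 in the WT libraries and 68.9, 56.8 and 45.6 in the KO libraries. Each KO library was far above the highest WT library (2.32 ± 0.23, limma adjusted p = 3.9e-05).

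Of 39 transcription factors of the intestine 9 fell and 0 rose. Creb3l3, which drives lipid and apolipoprotein genes, stood at 9495, 10758 and 10936 in the WT libraries and 629.7, 1025 and 854 in the KO libraries (-3.66 ± 0.15, limma adjusted p = 8.5e-08). The nuclear receptors Nr1i3 and Vdr, the latter the receptor of vitamin D, fell from 409.7 to 122 and from 985 to 316. Cdx1, a homeobox factor of the hindgut and midgut, stood at 1514, 1553 and 1498 in the WT libraries and 979.8, 1176 and 961 in the KO libraries (-0.56 ± 0.09, limma adjusted p = 5.7e-04). Of 15 junction genes with values 2 fell and 0 rose, against 6.81% and 1.19% over all genes, and the list median was -0.18. Cldn15, a claudin of sodium pores, fell from 448 to 91.2 and Cldn1 from 132 to 32.6, and Cldn2 had group means of 7287 in WT and 3453 in KO. A claudin outside this list, Cldn19, fell further, from 119.7 to 7.56 (-3.97 ± 0.25, limma adjusted p = 1.6e-06).

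Of 17 butyrophilin-like genes and other epithelial genes of the immune interface 10 fell and 0 rose, against 6.81% and 1.19% over all genes. Pigr, which carries IgA to the lumen, stood at 1797, 1662 and 1163 in the WT libraries and 52.5, 58.5 and 67.4 in the KO libraries, and Btnl2 fell from 498 to 41.6, Btnl1 from 1436 to 211 and the cytokine Il18 from 431 to 53.1. MHC class I and immunoproteasome genes fell in 7 of 16, among them H2-Q1 (from 392 to 59.9), H2-Q2 (from 3328 to 977), H2-T23 (from 342 to 113) and H2-T3 (from 1547 to 633), while B2m, their shared light chain, stood at 4297, 4275 and 4179 in the WT libraries and 2370.4, 2392 and 2096 in the KO libraries (-0.90 ± 0.07). Reads shared by these related genes were left out of the counts. Of 31 interferon-induced genes 9 fell, with Parp14 from 402 to 106, Rtp4 from 108 to 30.0 and Stat2 from 502 to 208, and Ifit1 had group means of 443 in WT and 149 in KO. Of 19 macrophage genes 2 fell, close to the 6.81% over all genes. Csf1r, the receptor on which they depend, stood at 755, 909 and 809 in the WT libraries and 247, 272 and 243 in the KO libraries, apart in every library (-1.69 ± 0.09, limma adjusted p = 3.3e-07), and the 20 genes of the list summed between 3027 and 3899 in the WT libraries and between 2331 and 2721 in the KO libraries. Of 9 lymphocyte genes 2 fell.

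Genes of replication and mitosis fell in 1 of 33, E2f8 (from 623 to 301), and rose in 0, although 24 were higher at an adjusted p under 0.05, against 21.7% over all genes. Mki67, the Ki67 antigen of cycling cells, stood at 848, 798 and 723 in the WT libraries and 1047, 703 and 940.3 in the KO libraries with overlapping groups (limma adjusted p = 0.36). Among 29 inhibitors of the cell cycle and p53 targets 2 fell, close to the 6.81% over all genes, and the list median was 0.047. These were Perp and Gdf15 (from 1345 to 523 and from 61.7 to 25.7). Phlda3 rose (from 185 to 395), a rise that was under 2-fold without WT library c or KO library b (0.99 and 0.97). Cdkn1a stood at 1137, 1329 and 1356 in the WT libraries and 1059.6, 1452 and 1101 in the KO libraries (limma adjusted p = 0.57). Polycomb genes fell in 0 and rose in 0 of 30 by limma, with 4 lower and 7 higher below 2-fold against 22% and 21.7% over all genes, and Ezh1 stood at 1143, 1169 and 1162 in the WT libraries and 861, 924 and 959 in the KO libraries (-0.34 ± 0.07). Stress genes fell in 2 of 21, close to the 6.81% over all genes, namely Gclm of glutathione synthesis (from 2351 to 1111) and Srxn1 (from 1248 to 606), and Hspa1b, a heat shock protein, rose from 23.7 to 50.6. The last 2 were under 2-fold without 1 library, Srxn1 at -0.997 without WT library b and -0.92 without KO library a and Hspa1b at 0.79 without KO library b. Atf4 stood at 1416, 1469 and 1500.2 in the WT libraries and 1236, 1616 and 1245 in the KO libraries (limma adjusted p = 0.42). In glycolysis only Pfkfb3 of 14 fell (from 1451 to 631), close to the 6.81% over all genes. Jdp2, of the AP-1 family, rose from 109.7 to 226 but was at 0.95 without KO library a.

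Of the 12 largest rises, among genes with a mean of at least 50 in KO, 5 were histone genes, and 1 of these, Hist1h2al, did not pass (limma adjusted p = 0.27), with KO library c at 1 read. Hist1h4c stood at 4.55, 7.43 and 0 in the WT libraries and 59.5, 75.3 and 71.2 in the KO libraries and Hist1h4i at 121, 135 and 141 in the WT libraries and 469, 669 and 492 in the KO libraries. Both were apart in every library (3.65 ± 0.50 and 2.01 ± 0.16, limma adjusted p = 2.7e-04 and limma adjusted p = 7.3e-06). Hist1h4m and Hist1h4h rose from 2.3 to 66.8 and from 15.2 to 74.0. Over the 35 replication-type histone genes with values, a family picked by symbol after the values were seen, 19 rose and 0 fell, with a median of 1.45 over its 36 members. Messages of these genes mostly lack a poly(A) tail, and the labels state poly(A) selection while the study's methods describe amplified cDNA of another kit. Their copies are near-identical, and reads shared by copies were left out of the counts. The others of the 12 were Fabp6, Shh, the long non-coding Gm14963 (19.7, 15.3 and 19.9 in the WT libraries and 77.1, 87.0 and 91.0 in the KO libraries), the pseudogene Gm11398 (from 12.3 to 69.6), and Snora68, Mir378b and Gm17285. Gm11398 (mm9 chromosome 13, 23710849 to 23712947) lies within the span of the histone gene Hist1h2be, on the same strand. Snora68, Mir378b and Gm17285 had at most 14 reads in any library. Mir378b lost its call without KO library a (adjusted p of 0.060 in limma) and Gm17285 without any 1 of WT libraries a and c and the 3 KO libraries, where its adjusted p lay between 0.062 and 0.13.

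A pair of microRNA genes that share a seed moved in opposite directions. Both were chosen after their values were seen, out of 14 microRNA genes that passed, 10 lower and 4 higher. Mir192 (mm9 chromosome 19, 6264844 to 6264932, 1 annotated exon) had 29, 17 and 21 reads in the WT libraries and 13, 8 and 10 in the KO libraries, and Mir215 (mm9 chromosome 1, 187137460 to 187137571, 1 annotated exon) had 10, 12 and 25 reads in the WT libraries and 41, 56 and 78 in the KO libraries. The WT and KO libraries did not overlap for either, and the differences were -1.21 ± 0.30 and 1.69 ± 0.39 (limma adjusted p = 0.0095 and limma adjusted p = 0.0056). The mature 5′ arms from RefSeq (GRCm38.p6), shown because they have the same seed, are written with the seed, bases 2 to 8, in capitals.
miR-192-5p: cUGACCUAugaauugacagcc
miR-215-5p: aUGACCUAugauuugacagac
These libraries were made from long RNA, so the reads count transcripts over the hairpins and not mature microRNAs. Mir194-1, beside Mir215, had 15, 7 and 17 reads in the WT libraries and 27, 22 and 27 in the KO libraries (limma adjusted p = 0.087).

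Short words were counted in promoters of the genes that fell and of little changed genes. Windows of RefSeq (GRCm38.p6), the 250 bases before each start, were matched by symbol to 10503 members. The letters CAAAGTCC, a word that nuclear receptors of the HNF4 type are known to bind, stood on either strand in 4.73% of the 698 windows of genes that fell, 1.18% of 4339 windows of genes changed by less than 1.2-fold and 1.22% of all 27025 windows. Among the 224 genes that fell past 4-fold the share was 7.59%. TTTATNG, a word of Cdx factors, stood in 10.9% and 6.08% of the first 2 classes and in 10.2% of all windows. TATAAA, which can overlap TTTATNG on the other strand, stood in 12.2% and 5.53% and in 12.97% of all windows. CCAAT stood in 33.4% and 36.4%. The median number of CG pairs was 5 in windows of genes that fell, 16 in those of little changed genes and 6 over all windows. Of the 81 matched genes that rose 13.6% held TATAAA and 3.70% CAAAGTCC. A match is a run of letters and not a measured binding site. The windows of 4 genes described above are shown around their CAAAGTCC, in capitals (on the other strand it reads GGACTTTG), on the strand of the gene.
Alpi, chr1:87101607-87101649, - strand: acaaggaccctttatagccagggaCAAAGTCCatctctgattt
Rbp2, chr9:98490380-98490435, + strand: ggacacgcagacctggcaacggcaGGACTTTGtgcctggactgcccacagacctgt
Btnl1, chr17:34377080-34377131, + strand: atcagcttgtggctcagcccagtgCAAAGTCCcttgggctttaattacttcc
Btnl2, chr17:34354757-34354812, + strand: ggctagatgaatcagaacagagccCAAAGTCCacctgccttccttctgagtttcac

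Control organoids are cultures of ileal epithelium without stroma, and their means, normalised apart from these embryos, were used only to sort genes. By the study's methods they came from adult Taf4lox/lox mice and were treated with hydroxytamoxifen. A gene under 1 there may still belong to fetal epithelium or to another region of the gut. Of the 1453 members under 1 in control organoids 70.1% were above 0 in their change, with a median of 0.33, while the 14369 members at 1 or more had a median of 0.01. Falls were about as frequent in both classes. Of 1427 genes under 1 with values 105 fell, 7.36%, and 36 rose, 2.52%, against 6.82% and 1.01% of 13518 genes at 1 or more. Abcb11, Paqr9, Enpp7, Gip, Sst and Slc38a3 were among these 105. At 1000 or more in organoids 129 of 2073 genes fell, 6.22%, and 3 rose.

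The ileum of adults labelled KO and WT was measured with the same normalisation but in other animals, 8 weeks old. By the study's methods both adult groups were Taf4lox/lox and received tamoxifen, and only KO carried a tamoxifen-inducible villin Cre. There 586 of 15838 genes fell, 3.7%, and 192 rose, 1.21%. Of the 882 genes that fell in the embryo and were tested in the adult, 218 fell there too, 24.7%, against 3.09% of all 14327 embryo members tested in the adult, and 6 rose. Of the 132 that rose in the embryo 42 rose in the adult, 31.8%, against 0.949%, and 4 fell. Histone genes made up 15 of these 42. The median change of the 882 genes was -1.51 in the embryo and -0.53 in the adult. Another 174 genes that fell in the embryo were under 10 in both adult groups. Alpi had adult means of 2976 in WT and 292 in KO and Enpp7 of 121 in WT and 6.63 in KO. Fbp1 had adult means of 266 in WT and 487 in KO and Slc2a2 of 27.4 in WT and 92.7 in KO, higher in KO but with a limma adjusted p of 0.06 and 0.45.

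**Figure D5:**
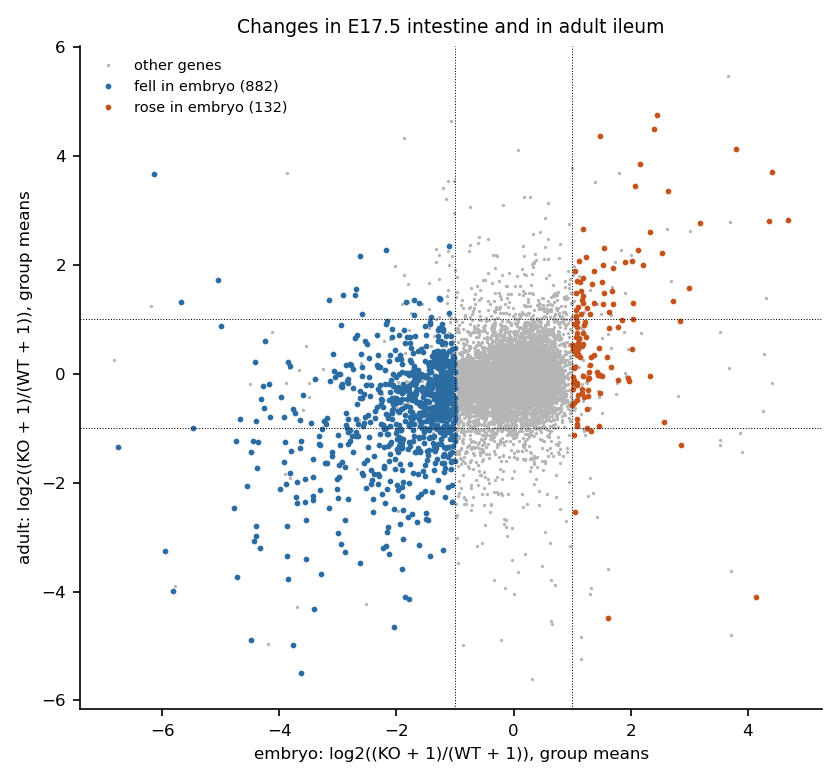
Change between group means, log2((KO + 1)/(WT + 1)), in adult ileum against that in E17.5 intestine, 1 point per gene tested at both stages, with dotted lines at 2-fold. Of the genes that fell in the embryo (882, blue) 24.7% fell in the adult, and of those that rose (132, orange) 31.8% rose.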

How the data were processed

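RNA-seq libraries of E17.5 intestine labelled WT and KO, 3 each, were analysed. Per the labels and the study's methods, the authors aligned reads to mm9 with STAR 2.5.3a, after Bowtie2 2.2.8 and cutadapt 1.10 in the submitters' processing notes, counted them with HTSeq and normalised with DESeq2. The deposited table gives the signal of each gene as 1 mean of normalised counts per group, which the values show to be divided by the median transcript length in kb, a step that the sources used here do not state. Other columns hold the authors' fold changes and p-values and were not used, and 0 columns of single samples were left unused. The library kit differs between the labels (poly(A), stranded) and the methods (amplified cDNA).

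A mean of 3 whole read numbers over size factors has few solutions at the deposited precision, so reads per library were solved for, with a unique answer in all groups for 95.9% of the 27316 genes. Size factors recomputed from these reads differed by at most 0.786%. Steps were tested on simulated data. Genes with a mean of at least 10 in either group were kept. The test, limma 3.58.1 (trend, R 4.3.3, Benjamini-Hochberg) on log2(normalised reads + 1), 3 against 3 with no covariate, was added after reads could be recovered, in place of a planned comparison of means without a test. Figures and tables used Python 3.11.15.

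Genes were named by a rule: the 12 largest falls with a mean of at least 100 and the 12 largest rises with at least 50, up to 4 members past 2-fold and the first gene of each list, members past 2-fold against a list's median, and the 10 largest losses and gains. Genes named outside it were chosen after their values were seen, among them Chga and the microRNA genes. A few genes that the rule names are not reported here. The members and lists were chosen with earlier results of these data known. Alternatives were other pseudocounts, filters, folds, scalings and lengths and leaving out each library.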

Additional observations from a re-analysis of the deposited data

Results flagged for a closer look

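Genes past 2-fold and the limma threshold in opposite directions at the 2 stages were looked for, and 10 were found. Genes lacking values per library at either stage could not enter this search. Fabp6, which rose in the embryo, was such a gene, with adult means of 116490 in WT and 35749 in KO and no adult test. The difference itself was tested in each of the 10, as the interaction of stage and genotype in limma over 12 libraries. The 10 were picked for opposite changes in these same libraries, so a small p was largely fixed by that choice. It adds no separate support. Differences are given as the adult change minus the embryo change on the log2 scale, with SE. The stages differ in age, in region of the intestine and, by the study's methods, in the Cre used and in tamoxifen, and these cannot be told apart.

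Fgf15, the ileal hormone, had embryo means of 28.2 in WT and 88.3 in KO and adult means of 80.7 in WT and 2.64 in KO, a difference of -6.25 ± 0.79 (limma adjusted p = 1.8e-04). Its adult values were 144, 64.1 and 34.4 in the adult WT libraries and 4.49, 2.85 and 0.581 in the adult KO libraries. Jdp2, of the AP-1 family, had embryo means of 109.7 in WT and 226 in KO and adult means of 169 in WT and 77.2 in KO (-2.13 ± 0.24, limma adjusted p = 6.4e-05). Its embryo change was 0.95, under 2-fold, without KO library a. Prnd, which encodes a prion-like protein, had 107 in WT and 224 in KO in the embryo and 15.5 in WT and 1.85 in KO in the adult (-3.76 ± 0.48, limma adjusted p = 1.7e-04). Ccl2, a chemokine that draws monocytes, had 5.76 in WT and 15.1 in KO in the embryo and 56.6 in WT and 27.8 in KO in the adult (-2.32 ± 0.46, limma adjusted p = 0.0035). Without WT library b the embryo change of Ccl2 was 0.99 (limma adjusted p = 0.061), and its adult change had a limma adjusted p of 0.049. These 4 were higher in the embryo KO group and lower in the adult KO group.

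The other 6 went the opposite way. Myh7b, a myosin heavy chain, had embryo means of 1534 in WT and 234 in KO and adult means of 19.1 in WT and 53.7 in KO (4.20 ± 0.36, limma adjusted p = 8.9e-06). R3hdml had 99.1 in WT and 15.2 in KO in the embryo and 37.0 in WT and 170.1 in KO in the adult (4.77 ± 0.36, limma adjusted p = 3.3e-06). Reg1, a lectin of the Reg family, had 11.9 in WT and 0.728 in KO in the embryo and 129.6 in WT and 353 in KO in the adult (4.02 ± 0.62, limma adjusted p = 7.1e-04). Col7a1, the collagen of anchoring fibrils, had 232 in WT and 75.3 in KO in the embryo and 51.5 in WT and 128 in KO in the adult (2.94 ± 0.23, limma adjusted p = 4.5e-06). Fcamr, a receptor for IgA and IgM, had 26.6 in WT and 7.48 in KO in the embryo and 87.1 in WT and 186 in KO in the adult (2.85 ± 0.37, limma adjusted p = 1.9e-04). Zdhhc19, a palmitoyltransferase, had 445 in WT and 207 in KO in the embryo and 143 in WT and 309 in KO in the adult (2.21 ± 0.20, limma adjusted p = 1.7e-05).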

How the results depend on the processing

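Of 237 alternative values 217 kept their direction and stayed within 1.5 times the main count or on the same side of the threshold. The medians of 55 lists, under 3 alternatives each, kept their sign in 162 of 165 values, and with equal totals that of enteroendocrine hormones went from -0.099 to 0.036, of the unfolded protein response and stress from -0.080 to 0.056 and of glycolysis and hypoxia from -0.13 to 0.011. For the 1372 genes lower past 2-fold the counts were 857 with a mean of at least 50, 2474 with no filter, 2636 at 1.5-fold, 468 at 4-fold and 778 relative to the epithelial median. For the 356 genes higher they were 155 with a pseudocount of 10, 88 with a mean of at least 50, 1228 with no filter, 1504 at 1.5-fold, 83 at 4-fold, 213 for genes of at least 300 bases and 121 relative to the fibroblast median. With the limma test 609 of 1063 were lower relative to the epithelial median, and in place of 185 there were 82 higher with a pseudocount of 10, 311 with equal totals and 48 relative to the fibroblast median. The share of promoters with CAAAGTCC was 7.59% for genes past 4-fold lower. The cause of these differences was not tested beyond what each setting changes.

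Leaving out each library gave between 1279 and 1411 genes lower and between 360 and 421 higher past 2-fold among those with reads, and between 1014 and 1141 lower and 157 and 202 higher with limma. Lists with at least 25% of members lower past 2-fold numbered between 25 and 29 against 27, and named genes past 2-fold between 155 and 159. In every such fit 866 of the 1063 genes that fell kept their call, 81.5%, and 84 of the 185 that rose, 45.4%. The settings relative to marker genes, the length limit and all limma fits were chosen after seeing the data. Leaving out each library was also not planned for the genes higher, the lists and the named genes. No paired analysis was possible because the recovered libraries carry no replicate number. Genes under 300 bases, with few reads at low levels, and the 886 members without recovered reads, mostly abundant and untested, are less certain.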

Other observations

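Of 79 subunits of oxidative phosphorylation, picked by symbol after the values were seen, 73 were below 0, with a median of -0.34, and of 67 with values 37 were lower at an adjusted p under 0.05 in limma, against 22% over all genes, while 0 fell past 2-fold. Ribosomal proteins had a median of 0.04 over 78 members. All 22 Hox genes were above 0, with a median of 0.54. Fibroblast and matrix genes had 0.64, and smooth muscle and enteric neurons and glia had 0.50 each.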
